A study of Mus musculus with 7 samples.

Results

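Hoxc4, Hoxc5, Hoxc6, Hoxc8 and Hoxc9 form the 3' part of the Hoxc cluster. The 5 genes were taken by symbol from the 22552 gene symbols of the deposited table, and all 5 were present in each of its 7 libraries. RNA had been sequenced from cells sorted by flow cytometry from mouse skin at postnatal day 50, with 1 library in each of 7 groups, so that no difference between groups has a replicate check and no test was made. The groups were ear dermis, ear epidermis, dorsal dermis, dorsal epidermis and tail dermis of Wt/Wt mice (WT), and ear dermis and ear epidermis of Wt/Koa mice, written Koa below. All carried the strain label CD1/C3H, and the tail library was called dermis in its title only. The labels give neither the number of animals, their litters nor the sort markers, and differences of litter or handling cannot be told apart from those of the allele. Koa (Koala) mice carry an inverted stretch of chromosome 15, where the Hoxc cluster also lies, and grow hair on the ears.

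Hox genes encode homeodomain transcription factors that give cells their position along the head-to-tail axis. Within a cluster the 3' genes are active further forward and the 5' genes further back, and adult dermal fibroblasts keep a Hox pattern that reflects the body site they came from. Most Hox proteins bind DNA together with TALE cofactors of the Pbx and Meis families. The ear skin lies forward of the region where Hoxc4 to Hoxc9 are normally used.

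On GRCm38 in the GENCODE M21 annotation the 5 genes lie on the plus strand of chromosome 15. Hoxc9 runs from 102976439 to 102985099, Hoxc8 from 102990607 to 102994111, Hoxc6 from 102998257 to 103011881 and Hoxc4 from 103018934 to 103036852. Hoxc5 is annotated from 102967443 to 103017429 because a noncoding transcript begins far upstream, while its coding transcript lies between Hoxc6 and Hoxc4. That noncoding transcript shares 166 exonic bases with Hoxc10, and fragments from those bases cannot be assigned to either gene. The homeobox of Hoxc4, Hoxc6, Hoxc8 and Hoxc9 is shown because it is the most similar part of genes whose levels are compared here, and the capitals mark the conserved stretch of the recognition helix by which each homeobox was located. They are coding exon sequences on the plus strand, at chr15:103035663-103035842 (Hoxc4), chr15:103010754-103010933 (Hoxc6), chr15:102992571-102992750 (Hoxc8) and chr15:102983930-102984109 (Hoxc9), credited to GENCODE M21.
Hoxc4: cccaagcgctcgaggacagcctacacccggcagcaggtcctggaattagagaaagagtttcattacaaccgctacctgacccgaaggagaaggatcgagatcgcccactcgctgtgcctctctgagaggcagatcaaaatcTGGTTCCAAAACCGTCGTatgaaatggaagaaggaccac
Hoxc6: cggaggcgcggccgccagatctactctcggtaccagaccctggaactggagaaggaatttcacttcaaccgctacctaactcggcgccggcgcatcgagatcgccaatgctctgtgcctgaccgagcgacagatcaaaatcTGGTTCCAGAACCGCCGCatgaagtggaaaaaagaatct
Hoxc8: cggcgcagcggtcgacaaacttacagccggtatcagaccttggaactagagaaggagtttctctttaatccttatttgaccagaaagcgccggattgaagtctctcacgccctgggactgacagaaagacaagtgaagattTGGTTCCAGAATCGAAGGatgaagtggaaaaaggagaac
Hoxc9: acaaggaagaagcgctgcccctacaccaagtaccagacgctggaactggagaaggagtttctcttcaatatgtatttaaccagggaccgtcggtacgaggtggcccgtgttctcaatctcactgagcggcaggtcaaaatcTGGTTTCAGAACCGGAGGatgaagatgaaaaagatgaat

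Over these 180 bases the 6 pairs of these 4 genes were between 60% (Hoxc4 and Hoxc9) and 70.6% (Hoxc4 and Hoxc6) identical. The 4 genes were closer to those of the same number in the other clusters, at 73.3% to 84.4% over 10 pairs. The 38 pairs with genes of another number in those clusters ran from 59.4% to 79.4%, which overlaps that range. Over whole coding transcripts the longest stretch shared without a mismatch was 12 to 22 bases between the 4 genes, and reached 50 bases between Hoxc9 and Hoxb9. How the authors treated fragments that match several genes is not given in the sources used here.

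The authors gave levels in FPKM, which divides the fragments of a gene by its length and by the size of the library. It is a level per length, so that levels of different genes can be set side by side within a library. Between libraries the comparison also depends on the summed FPKM, which was not equal. The depth recovered from whole-fragment steps in the values lay between 31.7 and 40.4 M (mega) fragments in 6 libraries and could not be recovered for the tail library. Intervals below are exact 95% intervals of counting error alone. They do not hold the variation between animals, cultures or library preparations. The summed FPKM ran from 468787 (tail dermis) to 868855 (dorsal epidermis), and setting all sums equal moved the median difference over all genes, on the log2 scale, from 0.02 to 0.52 for Koa ear against dorsal epidermis and from -0.14 to 0.34 for dorsal dermis against dorsal epidermis. The tail values carry at most 2 decimals, 222 of the 4885 genes at 10 FPKM or more in all other libraries are listed at 0 there, and Xist stood at 41.5 FPKM there against at most 0.122 FPKM elsewhere. Ddx3y, a gene of the Y chromosome, was listed at 0 for tail, whereas the ear and dorsal libraries ranged from 33.1 to 38.3 FPKM. By Xist and Ddx3y the tail RNA reads as female and the rest as male. Sex and body site thus change together in every tail comparison, and the part of sex was not tested. Each tail value below therefore comes from a library that stands apart from the others. Of the 9 fibroblast markers none was at 0 in a dermal library, where their summed level lay between 6048 and 10889 FPKM against 26.3 to 42.6 FPKM in epidermis. The dermal libraries also held keratinocyte RNA: as a share of the epidermal level, the median of the 8 basal markers was 8.0% in WT ear dermis (4.12% to 31.4%), 11.6% in Koa ear dermis (9.81% to 43.9%) and 40.7% in dorsal dermis (26.5% to 75.8%). Dst gave the highest share in each of these dermal libraries. In bulk RNA, fewer cells of a type and less RNA per cell cannot be told apart.

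Hoxc4, at the 3' end of the cluster, stood at 7.08 FPKM in dorsal epidermis, 5.90 in dorsal dermis, 4.41 in tail dermis, 1.55 in Koa ear dermis, 0.445 in WT ear epidermis, 0.397 in the Koa ear epidermal library and 0.0618 in WT ear dermis. Among neighbours in this order, tail left aside, only both ear epidermal libraries had a ratio whose counting interval holds 1 (1.12, 0.648 to 1.91), and the dorsal layers differed by 1.20-fold (1.04 to 1.38). With the summed FPKM set equal the order of the dorsal layers turned. WT ear dermis was the lowest library, with an interval of 0.0179 to 0.153 FPKM.

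Hoxc5 had the narrowest range over the 6 ear and dorsal libraries on the log2(FPKM + 1) scale, at 1.80. That scale understates changes of low genes, and in fold of the listed values Hoxc5 moved more than Hoxc4. It stood at 2.52 FPKM in dorsal epidermis, 2.09 in dorsal dermis, 1.56 in Koa ear dermis, 0.656 in WT ear epidermis, 0.570 in Koa ear epidermis, 0.51 in tail dermis and 0.0109 in WT ear dermis, the last being about 1 fragment. The ratio of neighbours held 1 for both dorsal layers (1.21, 0.986 to 1.48) and for both ear epidermal libraries (1.15, 0.799 to 1.66). Dorsal dermis stood 1.34-fold above Koa ear dermis (1.07 to 1.67). On the log2(FPKM + 1) scale, Koa ear minus dorsal dermis was -0.27, and -0.10 with the summed FPKM set equal.

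Hoxc6 stood at 18.3 FPKM in dorsal epidermis, 18.04 in dorsal dermis, 4.63 in tail dermis, 1.36 in Koa ear dermis, 0.590 in Koa ear epidermis, then 0.0396 in WT ear dermis and 0.0178 in WT ear epidermis. The dorsal layers could not be told apart by counting error (17.1 to 19.6 and 16.8 to 19.3 FPKM), nor could both WT ear libraries, at about 2 and 1 fragments.

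Hoxc8, which in the mouse embryo helps to pattern the thorax, had the highest level of the 5 in every ear and dorsal library except WT ear epidermis. It stood at 39.8 FPKM in dorsal epidermis, 29.5 in dorsal dermis, 10.2 in Koa ear dermis, 1.97 in Koa ear epidermis, 1.32 in tail dermis, 0.241 in WT ear dermis and 0.171 in WT ear epidermis. Among neighbours only both WT ear libraries had a ratio whose interval holds 1 (1.41, 0.671 to 3.10), the tail having no interval. The order of the dorsal layers turned when the summed FPKM was set equal.

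Hoxc9, the most 5' member, stood at 7.24 FPKM in dorsal dermis, 1.89 in tail dermis, 1.09 in Koa ear dermis, 0.917 in dorsal epidermis, 0.279 in the Koa ear epidermal library and 0.109 in WT ear dermis, and was listed at 0 in WT ear epidermis. A count of 0 at that depth allows a level of up to 0.0343 FPKM by 3 fragments, and of 0.0421 FPKM by the upper end of the exact interval. The ratio of neighbours held 1 for Koa ear dermis and dorsal epidermis (1.19, 0.846 to 1.67), while Koa ear epidermis stood 2.57-fold above WT ear dermis (1.05 to 5.93). The plot of levels by library shows these orders side by side.

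**Figure D1:**
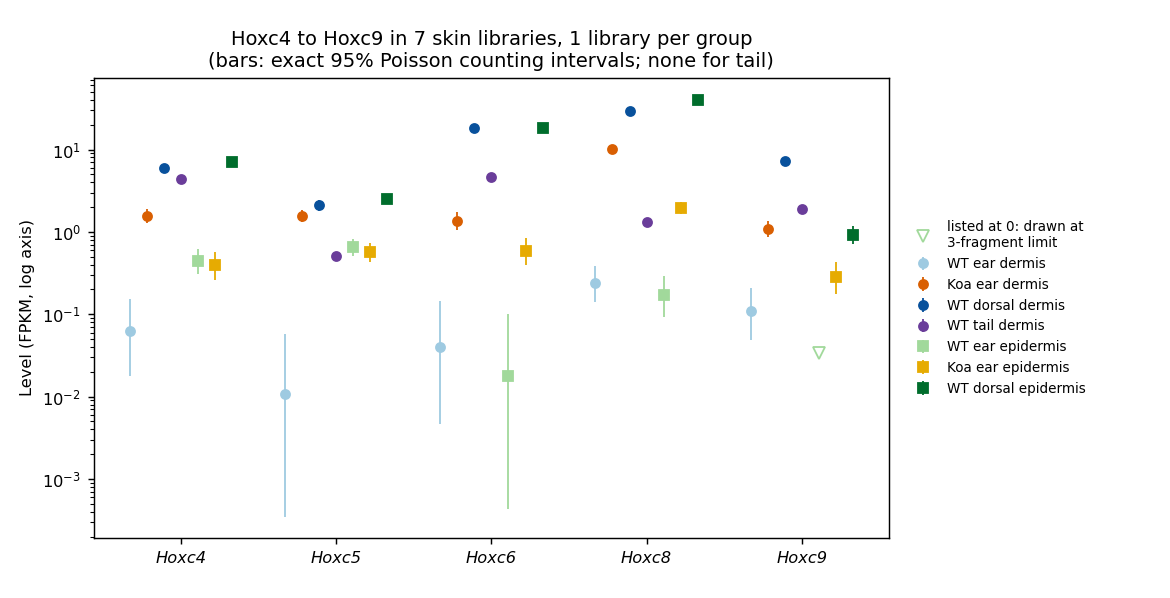
Level of each member (FPKM, log axis) in 7 libraries, 1 point per library, with circles for dermis, squares for epidermis and bars for exact 95% Poisson counting intervals (none for tail). Dorsal libraries are at the top for Hoxc4, Hoxc5, Hoxc6 and Hoxc8, up to 39.8 FPKM, and WT ear libraries are under 1 FPKM for every member. The open triangle is Hoxc9 in WT ear epidermis, listed at 0.

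The members did not keep the same proportions in the libraries. Of the summed level of the 5 genes, Hoxc8 made up 47.03% in dorsal dermis, 58.0% in dorsal epidermis, 64.7% in Koa ear dermis and 51.7% in Koa ear epidermis, but 10.3% in tail dermis. Hoxc6 made up 28.7% of the sum in dorsal dermis and 36.3% in tail dermis, against 8.61% in Koa ear dermis. In Koa ear dermis Hoxc4, Hoxc5, Hoxc6 and Hoxc9 lay close together, between 1.09 and 1.56 FPKM, whereas in dorsal dermis the same genes ran from 2.09 to 18.04 FPKM. In WT ear epidermis Hoxc5 and Hoxc4 were the highest members, at 50.9% and 34.5% of a sum of 1.29 FPKM.

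The comparison of Koa with WT ear asks what the allele changes where these genes are normally low. In ear dermis the 5 members were higher in Koa, by 10.1-fold (Hoxc9, counting interval 4.79 to 21.6) to 143-fold (Hoxc5, 27.3 to 6138, against about 1 fragment). With fragments computed from the shortest annotated transcript the lower limits came to 2.06 for Hoxc9, 3.94 for Hoxc6 and 5.88 for Hoxc5. For the latter pair the WT count was rounded to 0 fragments, although the levels there were above 0 (0.0396 and 0.0109 FPKM). The shortest transcript of Hoxc5, at 615 nt, is its noncoding one. Genes with 1 FPKM or more in either library were called when their log2(FPKM + 1) values lay 1 or more apart, named the size rule from here on. By it 4 of the 5 were higher and none lower, where 1.71% of 13690 genes were higher. The fifth, Hoxc9, differed by 0.92, and by 1.04 with equal sums. With a pseudocount of 5 in place of 1, only Hoxc8 passed. The median difference of the members was 1.26 against -0.0030 over all genes, and Hoxc8, at 3.17, was the gene with rank 30 among the 13690. Keratinocyte RNA moved with this comparison (11.6% against 8.0%), and its part in the result was not tested. In Koa ear dermis the epidermal level of Hoxc8 multiplied by the median share came to 0.228 FPKM, and by the share of the highest marker to 0.865 FPKM, beside 10.2 FPKM measured.

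In ear epidermis the members divided. Hoxc8 was higher in Koa by 11.5-fold (6.61 to 21.5) and Hoxc6 by 33.1-fold (5.47 to 1348, against about 1 fragment), with a lower limit of 1.64 for Hoxc6 from its shortest transcript. Hoxc9, at 21 fragments in Koa and 0 in WT, had an exact lower limit of 5.93-fold, and was 8.15-fold higher when counted against 3 fragments. From its shortest transcript, at 4 fragments in Koa, that limit was 0.751 and the interval holds a ratio of 1. Hoxc4 and Hoxc5 stood at 0.891 (0.524 to 1.54) and 0.868 (0.601 to 1.25) of their WT level, intervals that hold a ratio of 1. Hoxc8 was the only member to reach 1 FPKM in either library, and it passed the size rule with a difference of 1.34, where 2.15% of 12062 genes were higher, though not with a pseudocount of 5. Fibroblast RNA in Koa ear epidermis, a median of 0.118% of the dermal level over 9 markers, came to 0.0121 FPKM for Hoxc8 (0.148 FPKM at the highest marker share, 1.45%), beside 1.97 FPKM measured. Its part in the result was not tested.

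The comparison of Koa ear with WT dorsal skin asks how near the members come to a body site where they are normally used. In dermis Hoxc5 stood in Koa ear at 74.5% of its dorsal level (59.8% to 93.1%), Hoxc8 at 34.5% (31.7% to 37.6%), Hoxc4 at 26.2% (20.8% to 32.5%), Hoxc9 at 15.1% (11.8% to 19.0%) and Hoxc6 at 7.52% (5.73% to 9.62%). The intervals of Hoxc8 and Hoxc4 overlap and the others do not. From the shortest transcripts, however, Hoxc9 (ratio to dorsal of 0.0867 to 0.260) overlaps Hoxc4 and Hoxc6. The interval of Hoxc5 then holds the dorsal level (0.411 to 1.35), but its shortest transcript, of 615 nt, is the noncoding one. By the size rule 4 of the 5 were lower in Koa ear dermis, where 9.63% of 14223 genes were lower (845 genes higher and 1370 lower, or 1358 and 1087 with equal sums). Hoxc5 differed by -0.27, or by -0.10 with equal sums. Keratinocyte RNA differed between these libraries (11.6% against 40.7%), and the epidermal profile times that share was therefore also taken off and the remainder rescaled, an alternative added after the data were seen. The percentages became 94.1% for Hoxc5, 50.2% for Hoxc8, 33.4% for Hoxc4, 10.4% for Hoxc9 and 8.16% for Hoxc6. Hoxc8 then differed by -0.93 and no longer passed the size rule, and without rescaling neither did Hoxc4, while Hoxc5 came to 140.3% of the dorsal level.

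In epidermis the Koa ear levels were a smaller part of the dorsal levels for 4 members, at 22.6% for Hoxc5 (16.5% to 30.6%), 5.60% for Hoxc4 (3.65% to 8.27%), 4.94% for Hoxc8 (4.14% to 5.86%) and 3.22% for Hoxc6 (2.16% to 4.70%). Hoxc9, low in dorsal epidermis too, stood at 30.5% (17.2% to 49.5%). Of the 4 members with 1 FPKM in either library all were lower in Koa by the size rule, where 8.75% of 12489 genes were lower (439 higher and 1093 lower, or 1849 and 526 with equal sums). With equal sums Hoxc5 differed by -0.79 and did not pass.

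**Figure D2:**
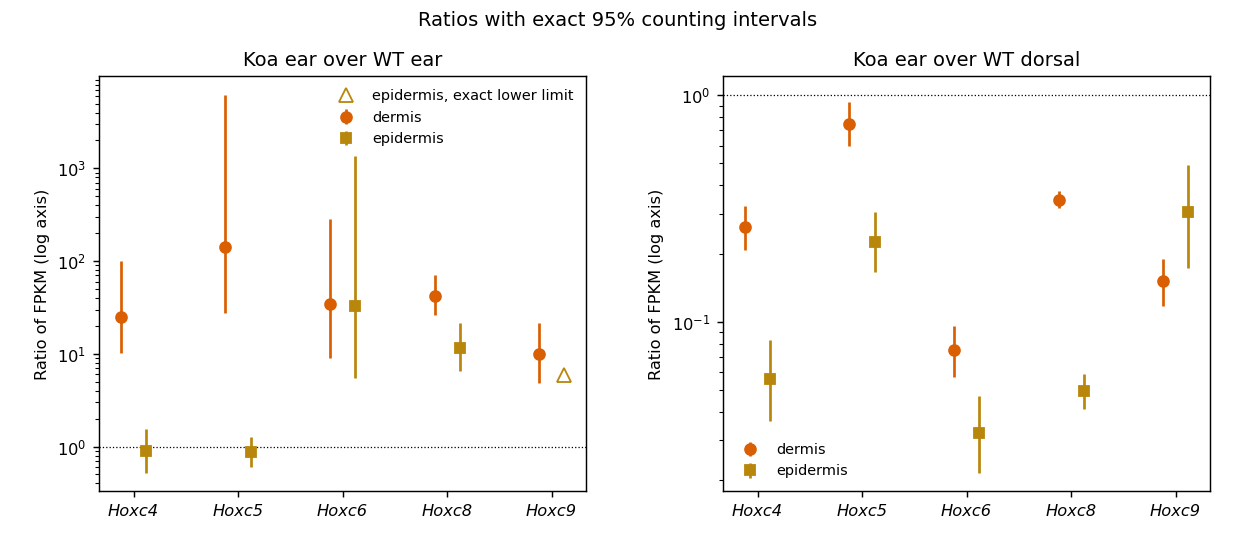
Ratio of FPKM for each member (log axes), Koa ear over WT ear at left and Koa ear over WT dorsal at right, with circles for dermis, squares for epidermis and bars for exact 95% counting intervals. The dermal ratios to WT ear are all above 1 while Hoxc4 and Hoxc5 in epidermis sit near 1, and Hoxc5 in dermis comes nearest to the dorsal level (0.745). The open triangle is the exact lower limit of 5.93 for Hoxc9, at 0 fragments in WT.

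Dorsal against ear skin of WT mice compares body sites. In dermis all 5 members were higher in dorsal skin by the size rule, where 11.7% of 14234 genes were higher (1670 higher and 1004 lower, or 1355 and 1556 with equal sums), and the median difference was 2.89 against -0.05 over all genes. Hoxc8 (4.62) and Hoxc6 (4.195) had ranks 51 and 68 among those genes. The 6 cartilage markers, none of them at 0, moved with this comparison, with a summed level of 465 FPKM in WT ear, 483 in Koa ear and 32.5 in dorsal dermis, and so did the keratinocyte share; their part in the result was not tested. In epidermis 4 of the 5 were higher, where 11.5% of 12500 genes were higher (1432 higher and 684 lower, or 802 and 1958 with equal sums). Hoxc8 was 232-fold higher (138 to 425) and Hoxc4 15.9-fold (11.4 to 23.6), whereas Hoxc5 was 3.85-fold higher (2.93 to 5.09), and with equal sums its difference of 1.09 came to 0.74. Hoxc9 stood under 1 FPKM in both epidermal libraries and had an exact lower limit of 21.1-fold in favour of the dorsal library (3.54 from its shortest transcript), or 26.8-fold counted against 3 fragments.

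The layers of dorsal skin differed most for Hoxc9. It was 7.89-fold higher in dermis than in epidermis (6.06 to 10.4), the only member past the size rule. Over all genes 16.1% of 13896 were higher in dermis (2239 higher and 1149 lower, or 2954 and 248 with equal sums), and 1 of 5 members is near that share. The other members stood in dorsal dermis at 0.742 (Hoxc8, 0.698 to 0.787) to 0.986 (Hoxc6, 0.893 to 1.09) of the epidermal level, a direction that turned for Hoxc4, Hoxc5, Hoxc6 and Hoxc8 when the sums were set equal. Fibroblast markers in dorsal epidermis stood at a median of 0.481% of their dermal level (0.258% to 3.95%), which gives 0.142 FPKM of Hoxc8 at the median and 1.17 FPKM at the highest marker, beside 39.8 FPKM measured, and 0.0869 and 0.713 FPKM of Hoxc6, beside 18.3 FPKM. In dorsal dermis the keratinocyte share gives 16.2 FPKM of Hoxc8 at the median, beside 29.5 FPKM measured. At the highest marker it gives 30.2 FPKM, which rests on Dst alone (23.0 FPKM in dorsal dermis and 30.4 in dorsal epidermis). For Hoxc9 the share gives 0.373 FPKM at the median and 0.695 FPKM at Dst, beside 7.24 FPKM measured. The part of either cell type in these levels was not tested.

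In Koa ear skin the 5 members were higher in dermis than in epidermis, from 2.30-fold (Hoxc6, 1.45 to 3.64, or 0.887 to 6.55 from its shortest transcript) to 5.18-fold (Hoxc8, 4.32 to 6.24). Hoxc8 alone passed the size rule, and 1 of 5 members is near the 20.4% of 13954 genes that were higher in dermis. With equal sums Hoxc4 came to 1.03 and passed. In WT ear skin no member reached 1 FPKM in either layer, and Hoxc4 and Hoxc5 were lower in dermis, at 0.139 (0.0337 to 0.366) and 0.0166 (0.000385 to 0.0887) of the epidermal level. Hoxc9 went the other way, with 9 fragments in dermis and 0 in epidermis and a lower limit of 2.19-fold (0.208 from its shortest transcript), and Hoxc6 and Hoxc8 had ratios of 2.22 (0.116 to 131) and 1.41 (0.671 to 3.10). The plot of subtracted levels shows that the Koa ear values moved little when the keratinocyte share was taken off. The dorsal ones moved much except Hoxc9, which went from 7.24 to 6.86 FPKM.

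**Figure D3:**
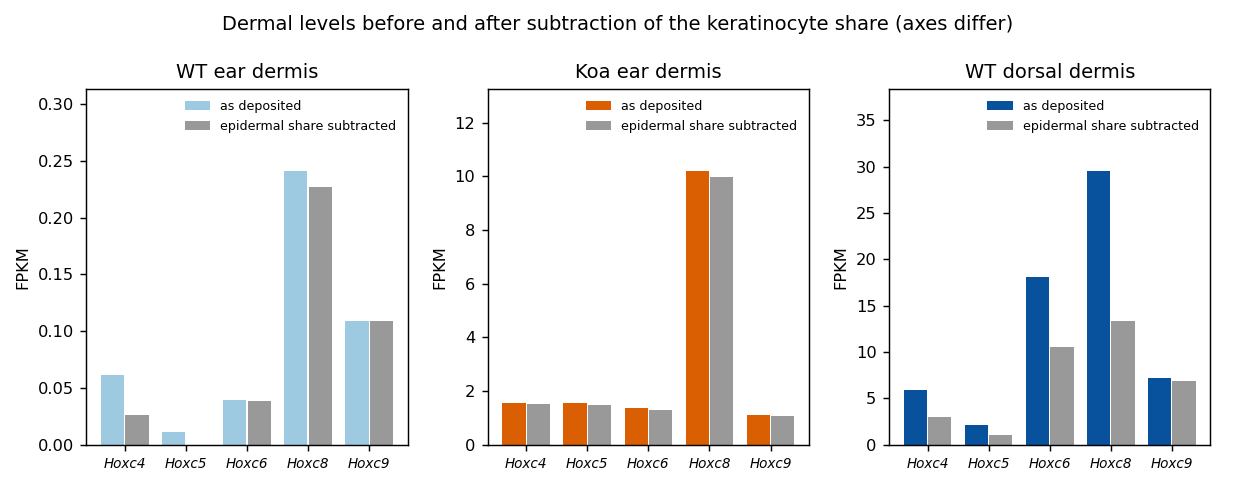
FPKM of each member in 3 dermal libraries, as deposited (coloured bars) and after subtraction of the keratinocyte share of the matching epidermal library (grey bars), on axes that start at 0 and differ between panels. Hoxc8 goes from 29.5 to 13.3 FPKM in dorsal dermis and from 10.2 to 9.97 FPKM in Koa ear dermis.

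Tail dermis, from the hind end of the body, had the 5' Hoxc genes at high levels and the members at lower ones, from 0.51 FPKM (Hoxc5) to 4.63 FPKM (Hoxc6). Hoxc5 and Hoxc8 stood below their level in Koa ear dermis, and Hoxc4, Hoxc6 and Hoxc9 above it. By Xist and Ddx3y, sex differed as well as body site in this and the following tail comparisons, and its part was not tested. Against WT ear dermis 3 of the 4 members with 1 FPKM in either library were higher (Hoxc4, Hoxc6 and Hoxc9), where 6.32% of 13666 genes were higher, with Hoxc8 at 0.90. With a pseudocount of 5 none passed. Against dorsal dermis 4 of the 5 were lower, Hoxc8 the most at -3.72, Hoxc4 being the exception at -0.35. In that comparison 29% of 14063 genes were lower and the median gene differed by -0.48 (992 genes higher and 4083 lower, or 1577 and 3195 with equal sums), so that lower values are common in the tail column, and with equal sums Hoxc5 differed by -0.91 and did not pass. The 5 melanocyte markers, none at 0, summed to 1574 FPKM in tail dermis against 112 to 274 FPKM in the other dermal libraries, and the 8 basal keratinocyte markers to 143 against 780 to 6364 FPKM; their part in the result was not tested. Hoxc10, Hoxc11, Hoxc12 and Hoxc13 stood in tail dermis at 10.9, 16.0, 24.0 and 14.4 FPKM, each above all 5 members, while in Koa ear dermis Hoxc10 to Hoxc12 stood at 0.0493 FPKM or less and Hoxc13 at 0.983 FPKM, against 0.345 FPKM in WT ear dermis. The profile along the cluster thus had its top at Hoxc8 in dorsal and Koa ear dermis and at Hoxc12 in tail dermis. In epidermis Hoxc13 stood at 6.52 FPKM in WT ear, 10.3 FPKM in Koa ear and 11.2 FPKM in dorsal skin, so that this Hoxc gene was not low in WT ear skin.

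**Figure D4:**
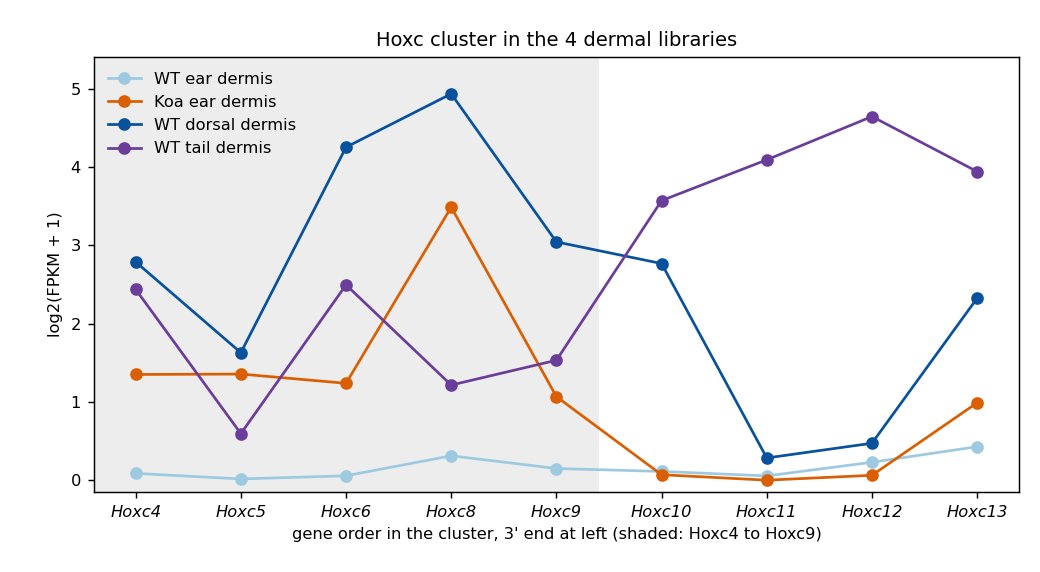
Level on the log2(FPKM + 1) scale of the 9 Hoxc genes in their order on the chromosome, 3' end at left, for the 4 dermal libraries, 1 library per line, with Hoxc4 to Hoxc9 shaded. Dorsal and Koa ear dermis both peak at Hoxc8 (4.93 and 3.49) and tail dermis at Hoxc12 (4.64), while WT ear dermis stays under 0.5 throughout.

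Mir196a-2 lies between Hoxc10 and Hoxc9, and its product miR-196a is known in the mouse to act on Hox messengers of group 8. Its mature form is shown because its gene lies within the cluster, and reads from 5' to 3', with its seed, bases 2 to 8, in capitals (RefSeq, GRCm38.p6, chr15:102973365-102973386):
mmu-miR-196a-5p: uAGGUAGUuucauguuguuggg
The matching letters ACTACCT, searched on the transcript strand alone, occurred at 2 places in the 3' UTR of Hoxc8 and at none in those of Hoxc4, Hoxc5, Hoxc6 and Hoxc9, against 5.51% of 20619 mouse 3' UTRs, whose median length of 797 bases compares with 966 for Hoxc8. The place nearer to the coding part lies at chr15:102992975-102993001 on the plus strand:
Hoxc8 site: acactcacaactctaACTACCTgtcag
These matches are descriptions of sequence. The seed match of miR-615-3p, whose gene Mir615 also lies in the cluster, was searched in the same way. It occurred in none of the members' 3' UTRs, against 2.04% of the 20619. The rows of Mir196a-2 and Mir615 are listed at 0 in all 7 libraries, and neither mature miRNA was measured.

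The 12 genes that carry the same numbers in the Hoxa, Hoxb and Hoxd clusters were set beside the members. In ear dermis 2 of the 12 reached 1 FPKM in Koa or WT (Hoxd8 at 2.90 and 3.71 FPKM, Hoxd9 at 0.771 and 1.16 FPKM), and none passed the size rule in either layer. Over all genes 380 of 13690 passed in ear dermis and 362 of 12062 in ear epidermis. In ear epidermis Hoxa4 was the only paralogue at 1 FPKM, at 1.64 in Koa and 2.71 in WT. Between dorsal and WT ear skin 9 of 11 paralogues with 1 FPKM were higher in dorsal dermis by the size rule, where 11.7% of all genes were higher. In dorsal epidermis 10 of 11 were higher, where 11.5% of all genes were. The highest was Hoxa5, at 14.95 FPKM in dorsal dermis and 44.9 in dorsal epidermis, against 0.0328 and 0.917 FPKM in WT ear. In group 6, Hoxb6 stood at 6.22 and 19.9 FPKM and Hoxa6 at 2.43 and 5.49 FPKM in dorsal dermis and epidermis, next to 18.04 and 18.3 FPKM for Hoxc6. In group 8 Hoxb8 stood at 5.58 and 15.4 FPKM, and in group 4 Hoxb4 at 6.54 and 12.0 FPKM and Hoxd4 at 1.53 and 0.978 FPKM. In tail dermis Hoxb9 (7.85 FPKM) and Hoxa9 (5.06 FPKM) stood above Hoxc9 (1.89 FPKM), while Hoxb5 was at 0.5 FPKM, near Hoxc5, and Hoxa4 was listed at 0.

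**Figure D5:**
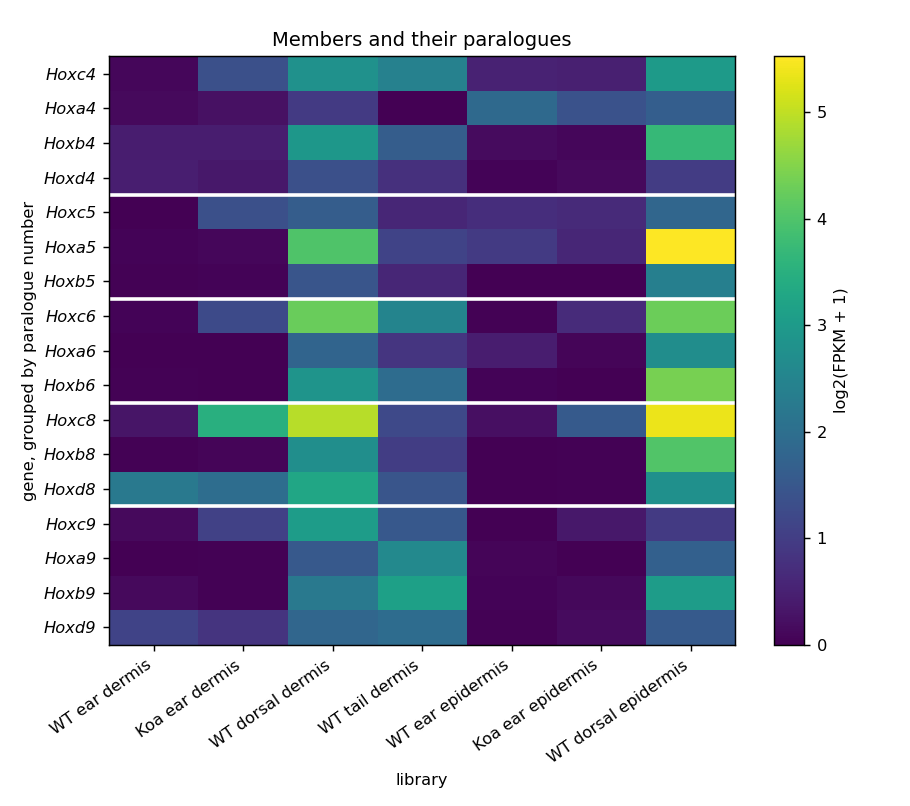
Level on the log2(FPKM + 1) scale of the 5 members and their 12 paralogues (rows, grouped by number) in 7 libraries (columns), 1 library per column. The paralogues are high in the dorsal columns as the members are, with Hoxa5 in dorsal epidermis at the top (44.9 FPKM), and between the Koa and WT ear dermis columns Hoxc4, Hoxc5, Hoxc6 and Hoxc8 pass the size rule and none of the 12 paralogues does. Over all genes 380 of 13690 pass between those columns, and only 2 of the paralogues reach 1 FPKM there.

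The TALE cofactors were measured in all 7 libraries. Of 9 genes, 8 reached 1 FPKM in Koa or WT ear dermis and none passed the size rule between them, where 380 of 13690 genes passed. Those with the widest range over the 6 ear and dorsal libraries were Meis3, Meis2, Meis1 and Pbx3. Meis2 stood at 20.6 FPKM in WT and 20.3 in Koa ear dermis, 3.40 in dorsal dermis and 2.38 to 2.51 in the epidermal libraries. Meis1 stood at 24.5 and 25.5 FPKM in WT and Koa ear dermis and 10.2 in dorsal dermis. Both were lower in dorsal than in ear dermis by the size rule, where 7.05% of genes were lower. Meis3 stood between 7.30 and 7.83 FPKM in the ear and dorsal dermal libraries and at most at 0.381 FPKM in epidermis, and Pbx3 ran from 3.95 to 9.64 FPKM.

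Genes with a pattern like that of the members were ranked by Pearson's r between their log2(FPKM + 1) and the members' mean over the 6 ear and dorsal libraries, which share layers, body sites and depths. Among 14478 genes the 10 most alike were Nol3, an apoptosis repressor, Pak1, a serine/threonine kinase, 1700092M07Rik, Gpr37, a G protein-coupled receptor, BC005624, Serf2, Kctd21, Clec2d, a lectin-like protein, Traf5, an adaptor of TNF receptors, and Amotl2, a scaffold protein of the angiomotin family. Their r lay between 0.979 and 0.989, but their levels moved less, Pak1 from 13.02 to 22.1 FPKM and Clec2d from 13.9 to 64.6 FPKM. No Hox gene was among them. Of the Hox genes ranked outside the 5 members, Hoxa9 (r = 0.91, rank 153) and Hoxb4 (0.90, rank 202) came nearest, and Hoxc10 had rank 1285. Between members, r over the same 6 libraries ran from 0.68 (Hoxc5 and Hoxc9) to 0.98 (Hoxc4 and Hoxc6).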

How the data were processed

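The authors deposited a table of FPKM values, per the file headers 1 column per library. TopHat2 2.0.13 and Cufflinks 2.2.1 and the builds GRCm38 and mm9 are named in the submitters' processing notes, without their roles, and the annotation and strandedness are not given in the sources used here. In 2 column names a layer is misspelled; each matched the title of 1 library only. Differences were taken on the log2(FPKM + 1) scale, which understates changes of low genes, in 11 comparisons between single libraries. A gene needed 1 FPKM in either library to be kept and a difference of 1 or more to be called. Several comparisons share libraries, such as WT ear dermis, so that their values are not independent. Col1a1, Col1a2 and Col3a1, listed at 0 in libraries rich in their RNA, were left out of the counts over all genes.

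Depth was fitted as the number of fragments at which low FPKM values, times transcript length less 207 nt, are whole. Between 65.7% and 69.8% of these values lay within 0.1 of a whole number. On simulated whole counts with the same transcript lengths all 6 depths were recovered. That checks the fitting step alone, and does not show that the lengths or the 207 nt hold for the deposited values. Fragments used the longest GENCODE M21 transcript and were rounded for the exact conditional binomial intervals of ratios. Limits for a level of 0 used 3 fragments. The keratinocyte share is the median over 8 basal markers of dermal over epidermal FPKM. Python 3.11.15, SciPy 1.17.1 and Biopython 1.88 were used.

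The named genes are all members, their paralogues, Hoxc10 to Hoxc13, the 4 cofactors with the widest range and the 10 most alike genes. The members, lists and rules were chosen with earlier results of these data known. Hotair was not analysed here. The homeobox sequence of Hoxc5 is not reported here.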

Additional observations from a re-analysis of the deposited data

Results flagged for a closer look

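For some members the same contrast went in opposite directions in different tissues. With 1 library per group the difference was not tested, and each value is a difference of differences on the log2(FPKM + 1) scale. Koa minus WT was above 0 in ear dermis and below 0 in ear epidermis for Hoxc4 (1.26 and -0.05, 1.31 apart) and Hoxc5 (1.34 and -0.08, 1.42 apart), but the epidermal ratios of 0.891 (0.524 to 1.54) and 0.868 (0.601 to 1.25) hold 1, so that no direction in epidermis is shown. The same 4 libraries give 1.31 for Hoxc4 and 1.42 for Hoxc5 when read as dermis minus epidermis, Koa ear against WT ear. Dermis minus epidermis was above 0 in Koa ear and below 0 in dorsal skin for Hoxc8 (1.92 and -0.42, 2.34 apart), Hoxc4 (1.09 apart), Hoxc5 (0.89 apart) and Hoxc6 (0.59 apart). It was also above 0 in WT ear and below 0 in dorsal skin for Hoxc8 (0.50 apart) and Hoxc6 (0.0504 apart), where the WT ear levels were under 1 FPKM and the WT ear ratios hold 1 within counting error. The dorsal ratios of Hoxc5 and Hoxc6 hold 1 as well. The dorsal directions turned with equal sums.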

How the results depend on the processing

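The number of members past the size rule was recomputed for each comparison. At a pseudocount of 5 it came to 1 (not 4) for Koa against WT ear dermis, 0 (not 1) for the same in epidermis, 0 (not 3) for tail against ear dermis and 2 (not 4) for tail against dorsal dermis. At a pseudocount of 0.1 it came to 5 (not 1) for Koa ear dermis against epidermis, and with equal sums to 2. With the keratinocyte share subtracted it came to 2 (not 4) for Koa ear against dorsal dermis, and to 3 with the remainder rescaled. All other counts of members stayed within 1.5 times, and no called member changed direction under the alternatives run. Of the 10 most alike genes, 5 were shared at a pseudocount of 0.1 and 3 with the tail library added. The shortest transcript of Hoxc5, used for the limits that follow, is its noncoding one (615 nt). With fragments computed from the shortest transcript the lower limits for Hoxc9 fell from 5.93 to 0.751 (Koa against WT ear epidermis) and from 21.1 to 3.54 (dorsal against ear epidermis), those for Koa against WT ear dermis from 27.3 to 5.88 (Hoxc5), from 8.98 to 3.94 (Hoxc6) and from 4.79 to 2.06 (Hoxc9), and those for dorsal against ear dermis from 36.6 to 7.98 (Hoxc5), from 124 to 58.5 (Hoxc6) and from 33.1 to 15.1 (Hoxc9).

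Over all genes, a pseudocount of 0.1 gave 681 calls (not 380) for Koa against WT ear dermis and 680 (not 362) in epidermis. A pseudocount of 5 gave 185 and 170 there, 1277 (not 2674) and 997 (not 2116) for dorsal against ear dermis and epidermis, 1050 (not 2215) and 844 (not 1532) for Koa ear against dorsal dermis and epidermis, 2116 (not 4550) and 2516 (not 5075) for tail against ear and dorsal dermis, and 2888 (not 4931), 1893 (not 3388) and 2664 (not 4620) for dermis against epidermis of WT ear, dorsal and Koa ear skin. Equal sums gave 2375 for Koa ear against dorsal epidermis. The subtraction alone gave 5486 for dorsal against ear dermis, 4546 for Koa ear against dorsal dermis, and 188 higher and 184 lower (not 234 and 146) for Koa against WT ear dermis. The cause of each change was not tested.

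No paired analysis was possible because each group has 1 library. Levels under about 3 fragments, as in WT ear, fix a ratio only to its interval, and differences between animals are not covered by any interval given.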
